A study of Danio rerio with 20 samples.

Results

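Frameshift deletions of 2 bp or more were described at 6 Cas9 guide sites in zebrafish melanomas. An allele was a member if its label held a single deletion and no other change, and if the deleted length was at least 2 bp and not a multiple of 3. This rule found 134 alleles among the 820 labels with an insertion or deletion and the 5521 labels of any change. The acaa2 tables listed 44 members for acaa2-sg1 and 29 for acaa2-sg2. The tlr4ba tables listed 14 for the first and 26 for the second guide, while tlr4bb had 4 and 17. They are called larger frameshift deletions here, and frameshift refers to length alone, since the coding position of the sites was not used.

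The tumours were raised in randomly picked fish by TEAZ, the electroporation of transgenes into adult zebrafish skin. Cells positive for tdTomato and Hoechst were sorted, and PCR products across each guide site were sequenced. One set of tumours was labelled as Acaa2 knockout and the other as TLR4 knockout, each with fish 1 to 4, and all were melanomas. The guides acaa2-sg1 and acaa2-sg2 were read in the Acaa2 fish and tlr4ba-sg2 and tlr4bb-sg2 in the TLR4 fish, 4 samples each, while tlr4ba-sg1 and tlr4bb-sg1 were read in TLR4 fish 3 and 4 only. This gave 20 samples. The promoters of the transgenes, the Cas9 source, the age and the strain were not in the sources used here, and no unedited tissue was analysed here.

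Cas9 cuts both DNA strands beside the site its guide pairs with, and cells often rejoin the ends with bases gained or lost. A deletion whose length is not a multiple of 3 shifts the reading frame when it lies in coding sequence, which commonly leads to a premature stop. Short deletions are usually ascribed to end joining with little trimming, and many longer ones to joining at short repeats that flank the cut. The product of acaa2 is a thiolase that works in mitochondrial breakdown of fatty acids, and tlr4ba and tlr4bb are zebrafish paralogs of the innate immune receptor gene TLR4. The cells of a tumour descend from founder cells, so a read share can reflect the growth of cell lineages and the PCR and is not a count of editing events. Neither was measured here.

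Each label gives the first deleted position, the length and the letter D, so that 1:2D is a 2-bp deletion of positions 1 and 2. Positions skip 0, and the boundary between -1 and 1 is called position 0 here. Where Cas9 cuts relative to position 0 was not checked, as guide sequences and coordinates were not used. A deletion was placed left of position 0 if its last base was at -1 or below, right if its first base was at 1 or above, and spanning otherwise. Shares are percents of classified reads, meaning all reads except those the authors counted as Other. A sample had 28230 to 729108 classified reads, and the widest 95% Wilson interval of a share of larger frameshift deletions was 0.719 percentage points. These intervals cover counting error only, since PCR reads without molecular identifiers are not independent molecules.

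The members removed 2 to 23 bp and had 11 distinct lengths. The 2-bp class had 50 alleles, the class of 4 to 8 bp had 48 and the class of 10 bp or more had 36. By side, 77 alleles lay left of position 0, 35 spanned it and 22 lay right of it. None of the deletions of 10 bp or more lay wholly on the right, where the 2-bp class had 13 alleles and the class of 4 to 8 bp had 9. Over all guides no member started before -26 or ended after 16. The range in which deletions were called is not given in the sources used here. Whether that range limits long deletions on the right was not tested. On the left there were 35, 24 and 18 alleles of the 3 classes in order of length, and 2, 15 and 18 spanned position 0. How a caller places a deletion among repeated bases sets its label, and the placement rule is not given in the sources used here, so the side of a label was not checked against sequence.

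Most members were rare. There were 41 members with 1 read in all, and 50 reached 10 reads in at least 1 fish. Only 10 of the 134 reached 1% of the classified reads of a sample, and these 10 held 98.7% of the reads of all members. That percent pools raw reads, so deeper samples weigh more. The allele -16:14D in acaa2-sg2 fish 3 gave 371945 of the 712541 reads. Of the 10, 3 removed 2 bp, 5 removed 4 to 8 bp and 2 removed 10 bp or more. The guide acaa2-sg1 had 4 of them and tlr4ba-sg2 had 3, while acaa2-sg2, tlr4ba-sg1 and tlr4bb-sg2 had 1 each and tlr4bb-sg1 had 0.

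Larger frameshift deletions took at least 1% of classified reads in 12 samples and at least 10% in 6, and were under 0.1% in 6. In each of the 12 samples, the leading member held 50.1% to 99.8% of the reads of the class, and the leading pair held 88.7% to 99.9%. The 2-bp class was the largest length class in 6 of these samples, 4 to 8 bp in 4 and 10 bp or more in 2.

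At acaa2-sg1 the larger frameshift deletions ranged from nearly absent to most of the reads. Fish 1 to 4 had shares of 0.0053%, 82.0%, 1.17% and 19.6% in that order, averaging 25.7% ± 38.6 (SD, n = 4). The lowest share stood for 11 reads (95% interval 0.0030 to 0.0096), and -4:2D led them with 3. Indels of any kind took 0.078% of the classified reads of fish 1, against 82.4%, 39.6% and 42.7% of fish 2 to 4. Each of the 3 tumours above 1% had a different leading deletion. Fish 2 was split between 1:2D at 44.4% and 1:7D at 37.0%, which start at the same base and leave frames that differ, since 2 and 7 bp have different remainders after division by 3. Fish 3 held 1:5D at 1.12% and fish 4 held -11:10D at 17.9%. The allele 1:2D returned in fish 4 at 0.958% and had 2 reads each in fish 1 and 3, and 1:7D had 2 reads in fish 1 and 0 in the other two. Neither 1:5D nor -11:10D had a read outside its own fish.

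By length, the 2-bp class made up 54.4%, 0.231% and 6.64% of the class reads of acaa2-sg1 fish 2 to 4. The class of 4 to 8 bp made up 45.6%, 99.8% and 0.0041% in the same fish, and deletions of 10 bp or more made up 93.4% in fish 4 with 0 reads in fish 2 and 3. The side changed with the fish as well. Class reads lay right of position 0 in 99.8% of fish 2 and 96.3% of fish 3, and left of it in 94.3% of fish 4. The 10-bp deletion of fish 4 ended 1 intact base short of position 0, at position -2.

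At acaa2-sg2 a single tumour carried nearly all of the class. Fish 3 was at 51.1%, against 0.436% (interval 0.412 to 0.461) for fish 1, 0.0010% (3 reads) for fish 2 and 0.0083% (43 reads) for fish 4. The average was 12.9% ± 25.5 (SD, n = 4). Indels of any kind took 1.36%, 88.3%, 89.2% and 39.1% of the classified reads of fish 1 to 4. Single 1-bp deletions took 88.3% of fish 2 and 38.6% of fish 4, so a low class share there was not a lack of indels. In fish 3 the 14-bp deletion -16:14D held 99.8% of the class reads, and 372553 of the 372562 class reads lay on the left. In fish 1 the 8-bp deletion -3:8D, which removes 3 bases left and 5 right of position 0, held 98.9% of the class reads at 0.431% of classified reads. It had 0 reads in fish 2, 3 and 4, which allows up to 0.0010%, 0.00041% and 0.00058%. The leading member of fish 4 was -13:10D with 17 reads, and that of fish 2 was -21:2D with 1 read, level with 2 other members.

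The acaa2 guides were compared to ask whether the class was more frequent at either site. The difference in mean share was 12.8 percentage points (exact two-sided permutation p = 0.514), smaller than the spread between fish. That test ignored that both guides were read in the same fish numbers. With the fish number as a block, the exact sign-flip permutation p was 0.75, and 4 fish cannot bring that test under 0.05. The order of the guides turned with the fish, with acaa2-sg1 higher in fish 2 and 4 and acaa2-sg2 higher in fish 1 and 3. Within fish 1 and 2 the gap was 40.8 points and within fish 3 and 4 it was -15.1 points. Leaving out acaa2-sg1 fish 2 gave -5.95 points.

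At tlr4ba-sg1 the larger frameshift deletions lay far from position 0. Fish 4 had a share of 7.12% (interval 7.05 to 7.20) and fish 3 of 0.0076% (29 reads, interval 0.0053 to 0.011), averaging 3.56% ± 5.03 (SD, n = 2). In fish 4, -17:5D held 89.1% of the class reads at 6.34% of classified reads, and -17:4D took a further 0.753%. Both start at position -17, and they stop 12 and 13 intact bases short of position 0. Only 4 of the 32212 class reads of fish 4 removed a base within 10 bp of position 0, and 10 of the 29 reads of fish 3 did. No member at this guide adjoined or spanned position 0. Whether other deletions at this guide lie as far from it was not tested. The most abundant member of fish 3 was -15:2D with 13 reads, and this allele had 38 reads in fish 4.

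At tlr4ba-sg2 members recurred from tumour to tumour. Shares for fish 1 to 4 were 38.0%, 4.69%, 8.92% and 0.498%, averaging 13.0% ± 17.0 (SD, n = 4). These reads were 54.9%, 87.0%, 99.0% and 67.7% of all indel reads of the 4 fish in order. Between 90.2% and 99.9% of the class reads lay left of position 0 in each fish, and 99.9% to 100% adjoined or spanned it.

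The tlr4ba-sg2 reads were carried by 3 deletions that all end at position -1. The 2-bp deletion -2:2D took 33.4%, 0.503%, 4.30% and 0.00065% of the classified reads of fish 1 to 4, the last being 4 reads. The 4-bp deletion -4:4D took 4.38% of fish 1 and 4.47% of fish 3, with 2 reads in fish 4 and 0 in fish 2, which allows up to 0.011%. The 5-bp deletion -5:5D was at 0.017%, 3.66%, 0.130% and 0.495% in this order of fish, and it led the class in fish 2 and 4. Of these deletions, -5:5D was counted in all 4 fish at 10 reads or more, -2:2D in 3 and -4:4D in 2. A spanning 4-bp deletion, -2:4D, had 14, 129, 15 and 0 reads.

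The tlr4ba guides differed by -9.46 points in mean class share, first guide minus second (exact two-sided permutation p = 0.533, where 2 against 4 samples cannot go below 0.133). That test ignored that fish numbers 3 and 4 were read with both guides. The groups overlapped, since tlr4ba-sg1 fish 4 lay above tlr4ba-sg2 fish 2 and 4. Restricted to fish 3 and 4, which have both guides, the gap was -1.14 points, and it came to -1.14 points too without tlr4ba-sg2 fish 1. As a share of indel reads the groups did not overlap, with 0.021% and 9.14% at tlr4ba-sg1 against 54.9% to 99.0% at tlr4ba-sg2, a gap in means of -72.6 points (exact permutation p = 0.133).

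At tlr4bb-sg1 the class was at the level of a few reads. Fish 3 had 1 read among 233695 classified reads and fish 4 had 4 among 201223, or 0.00043% (interval 7.6e-05 to 0.0024) and 0.0020% (interval 0.00077 to 0.0051). The 5 reads were spread over 4 alleles, of which -3:2D had 2 reads and 7:7D, the only one in fish 3, had 1. This is the lowest mean share among the 6 guides, at 0.0012% ± 0.0011 (SD, n = 2). Indels of any kind were rare there too, with 102 reads (0.044% of classified reads) in fish 3 and 91 (0.045%) in fish 4. The low share is therefore not particular to this class. Without unedited tissue, it was not tested whether reads at this level are above sequencing error.

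At tlr4bb-sg2 the class was in effect 1 allele. Fish 1 and 4 were high, at 24.9% and 17.5%, and fish 2 and 3 low, at 1.33% and 2.28%, averaging 11.5% ± 11.6 (SD, n = 4). The 2-bp deletion 1:2D held 98.5%, 80.3%, 99.2% and 99.8% of the class reads of fish 1 to 4, and led in all 4. Right of position 0 lay 98.5%, 80.4%, 99.4% and 99.9% of the class reads. Beside it, 2 members passed 0.1%, the spanning -1:5D at 0.342% in fish 1 and -14:14D at 0.237% in fish 2, each with 0 reads in the other 3 fish.

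The tlr4bb guides differed by -11.5 points (exact two-sided permutation p = 0.133, the smallest this design gives), and both tlr4bb-sg1 samples lay below all 4 tlr4bb-sg2 samples. The test again ignored that fish numbers 3 and 4 were read with both guides. In fish 3 and 4 alone the difference was -9.90 points. As a share of indel reads the groups overlapped, since tlr4bb-sg1 fish 4 (4.40%, 4 of 91 reads) lay above tlr4bb-sg2 fish 2 (1.67%), and the means were -39.2 points apart (exact permutation p = 0.267). The second guides of the paralogs, read in the same 4 fish numbers, differed by 1.50 points (tlr4ba-sg2 minus tlr4bb-sg2, exact two-sided permutation p = 0.886). This is smaller than the spread between fish. With the fish number as a block, the exact sign-flip permutation p was 0.875, and 4 fish cannot bring that test under 0.05. Fish 1 and 2 gave 8.20 points and fish 3 and 4 gave -5.20, and the value without tlr4ba-sg2 fish 1 was -6.82 points. As a share of indel reads the second guides differed by 35.3 points (exact permutation p = 0.171). On classified reads the difference turned to -1.90 without tlr4bb-sg2 fish 2 and to -1.58 without tlr4bb-sg2 fish 3. The first guides, with 2 samples each, had means of 3.56% and 0.0012%, which were not tested.

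The label 1:2D was listed at 3 guides, acaa2-sg1, tlr4ba-sg2 and tlr4bb-sg2. It reached 1% at acaa2-sg1 and tlr4bb-sg2, the only label to do so at more than 1 guide, and had 21 reads in all at tlr4ba-sg2. Of the other labels that reached 1%, -2:2D, -4:4D and -5:5D of tlr4ba-sg2 and -11:10D of acaa2-sg1 were listed at a further guide, below 1% there. The sequences of the sites were not compared here, so equal labels can be called equal in geometry only.

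At a minimum of 10 reads, most alleles shared between fish were of 2 bp. With an allele counted in a fish at 10 reads or more, 12 of the 50 members that reached this level were counted in 2 or more fish of their guide. No such count over all labels with an insertion or deletion is given here, so sharing cannot be called particular to this class. The shared members were 8 of the 12 members of 2 bp, 3 of the 22 members of 4 to 8 bp and 1 of the 16 members of 10 bp or more. The longest shared member, -16:14D of acaa2-sg2, was read 371945 times in fish 3 against 11 in fish 4, and was not shared at a minimum of 100 reads. By side, 7 of the shared members lay on the left, 2 spanned position 0 and 3 lay on the right. Depth differs between samples, and the count depends on the read minimum, as it was 35 with 1 read and 5 with 100 reads or with 0.1% of classified reads. The 5 at 100 reads were 1:2D of acaa2-sg1, 1:2D of tlr4bb-sg2, and -2:2D, -4:4D and -5:5D of tlr4ba-sg2. The larger part of 2-bp members at 10 reads thus included alleles of few reads, such as -15:2D of tlr4ba-sg1 with 13 and 38.

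The reads held by shared members varied with the site, and between the fish of a site at acaa2-sg1, acaa2-sg2 and tlr4ba-sg1. At tlr4ba-sg2, members counted in another fish of the guide held 99.7%, 98.5%, 99.9% and 99.8% of the class reads of fish 1 to 4. The corresponding values at tlr4bb-sg2 were 98.6%, 80.3%, 99.4% and 99.9%. At acaa2-sg1 fish 2 to 4 had 54.2%, 0.116% and 6.61%, and fish 1 had 63.6% of only 11 class reads. Fish 2 and 4 of acaa2-sg1 shared 1:2D, -1:2D and -2:2D, which was 3 of the 9 members counted in each. Reads of -2:2D numbered 23 and 681 there, and those of -1:2D 18 and 153. At acaa2-sg2 the value was 99.8% in fish 3, through the 11 reads of -16:14D in fish 4, and 0% in fish 1. Fish 2 was at 0% of 3 class reads and fish 4 at 27.9% of 43. At tlr4ba-sg1 fish 3 shared 48.3% of 29 class reads and fish 4 shared 0.118%. Members there could be shared with 1 other fish only, against 3 at the sites above. The difference between sites was not tested.

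Some rare members had the length of a leading one. In the 12 samples with a member at 1% or more, there were 126 entries of a member under 1% in a sample, the same member being counted again in each fish. Of these, 75 had the length of a member at 1% or more in that sample, at another position. The share ran from 0% in tlr4ba-sg2 fish 2 (0 of 3) to 88.2% in acaa2-sg1 fish 2 (15 of 17). A 2-bp member was at 1% or more in 7 of the 12 samples, and 2-bp members make up 50 of the 134, and no share to set these matches against was computed. In acaa2-sg2 fish 3 the match held for 7 of 12, all of 14 bp around -16:14D, and the most abundant was -17:14D with 387 reads. Of the 9 members of 14 bp at any guide, 8 were at acaa2-sg2. In acaa2-sg1 fish 2 the matches included 2:7D with 261 reads beside 1:7D and 3:2D with 187 reads beside 1:2D. It held for 6 of 12 in tlr4ba-sg1 fish 4, 3 of 8 in acaa2-sg1 fish 3 and 5 of 20 in acaa2-sg1 fish 4. The part of alignment or of read errors in these rows was not tested.

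By remainder after division by 3, 90 members removed a length that leaves 2, such as 2, 5, 8 or 14 bp. The other 44 removed a length that leaves 1, such as 4, 7 or 10 bp. The rule shapes this balance, as it admits the 50 members of 2 bp and leaves out the 114 single 1-bp deletions, which leave 1. These counts can therefore not show which frame is more common. Remainder 2 made up 99.9% or more of the class reads at tlr4bb-sg2 in each fish. At tlr4ba-sg2 it made up 88.4%, 88.7%, 49.8% and 99.9% in fish 1 to 4, the lower value of fish 3 coming with the 4-bp deletion -4:4D. It was 54.4% in acaa2-sg1 fish 2 and 6.66% in acaa2-sg1 fish 4, whose leading member removed 10 bp. Any such pair of remainders puts the downstream sequence in different frames.

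The class was then set against the other single deletions, with the guides of each fish averaged and the 8 fish as the units. Larger frameshift deletions took 15.1% of classified reads on average, in-frame deletions 6.84% and 1-bp deletions 17.0%. The class exceeded in-frame deletions by 8.25 ± 13.5 points (SD, n = 8), with a higher share in 7 of 8 fish (exact two-sided sign-flip permutation p = 0.016, Benjamini-Hochberg 0.125 over the 8 tests). After that adjustment the difference did not pass 0.05. Acaa2 fish 1 was the exception, at 0.220% against 0.453%. The test takes equal shares as its reference. The rule admits more lengths than the in-frame class, with 11 lengths against 8 among the labels and 134 alleles against 64. The excess can therefore not be read as a preference for frameshift lengths. Over fish 1 and 2 the excess was 12.6 points and over fish 3 and 4 it was 3.95 points. Without acaa2 fish 2 it was 3.58 points. As a share of indel reads it was 21.4 points (exact sign-flip permutation p = 0.055).

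Against 1-bp deletions the class differed by -1.91 ± 14.8 points (SD, n = 8), with a higher share in 3 of 8 fish (exact two-sided sign-flip permutation p = 0.719). The value was 0.618 points without tlr4 fish 2 and 1.71 points with only the second guides averaged in the tlr4 fish. The within-fish values ran from -19.6 points in tlr4 fish 2 to 29.1 points in tlr4 fish 1. Left and right of position 0 the class took 7.52% and 7.46% on average, a difference of 0.053 ± 18.6 points (SD, n = 8; exact two-sided sign-flip permutation p = 0.992). The left share was higher in 6 of 8 fish, and the largest difference was the -40.9 points of acaa2 fish 2, in which 1:2D and 1:7D lie on the right. On the log2 odds scale left minus right was 2.05 (exact sign-flip permutation p = 0.164). The mean joins sites of opposite side, as 90.2% to 99.9% of class reads lay left at tlr4ba-sg2 and 80.4% to 99.9% right at tlr4bb-sg2. A mean near 0 can therefore not show that a site lacks a side.

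Between the knockouts, the class took 19.3% of reads in the acaa2 fish and 10.9% in the tlr4 fish on average. The acaa2 fish 1 to 4 were at 0.220%, 41.0%, 26.1% and 9.83%, and the tlr4 fish at 31.5%, 3.01%, 2.80% and 6.29%. These averages cover 2 guides in tlr4 fish 1 and 2 and 4 guides in fish 3 and 4, and on the second guides only, tlr4 fish 3 and 4 were at 5.60% and 9.01%. The groups overlapped, and the difference in means was 8.41 points (exact two-sided permutation p = 0.486). Fish 1 and 2 gave 3.37 points, fish 3 and 4 gave 13.4 points, and the value without acaa2 fish 2 was 1.17 points. As a share of indel reads the difference was -11.2 points, and with only the second guides averaged in the tlr4 fish it was 7.02 points.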

How the data were processed

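Amplicons of genomic DNA from sorted zebrafish melanoma cells were read in 20 samples. The deposited values are read counts for each allele label, with a table for every guide and a column for every fish, per the file headers. The submitters' processing notes name GRCz10 and R 4.0.5, and the aligner, the caller and read filters are not given in the sources used here. Guide sequences and coordinates were not used here. Guide and fish number tied columns to samples, and 0 columns were left over. Samples of the same guide were compared in 26 pairs, and the lowest chi-square per degree of freedom was 34.9, so no samples were merged as copies of 1 library. That test sets samples against counting noise only and treats PCR reads as independent.

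Labels were parsed with Python 3.11.15 and pandas 2.3.3, and the code was tested on simulated data. Classified reads exclude Other, and every sample had at least 100. Depth, and so counting precision, differed between samples, and 0 reads were read as a limit of 3. The 8 tests were exact two-sided permutation tests of the mean share over samples or fish, or of within-fish differences, with 0.05 as the threshold and Benjamini-Hochberg values over the 8. The smallest p was 0.029 with 4 against 4, 0.133 with 2 against 4 and 0.0078 with 8 fish. Labels do not say whether samples of a group were prepared separately, and treating a fish number within a knockout as 1 animal is a reading of the titles. Whether same-numbered samples deviate together was not tested.

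Named members were those at 1% or more in a sample, the leading member of each sample, and those counted at 10 reads or more in 3 fish. Others given by name (-17:4D, -17:14D, 2:7D, 3:2D, -1:2D, acaa2-sg1 -2:2D, -1:5D, -14:14D) were chosen after their values were seen. Members, lists and tests were chosen with earlier results of these data known. Alternatives changed the denominator, low alleles, distance, scale, members, samples and pairing.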

Additional observations from a re-analysis of the deposited data

Results flagged for a closer look

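A value was singled out where 1 fish of a group lay farther from the next than Dixon's 95% limit allows for the group's range. Of 9 groups of class values, 4 met this. By chance the limit is passed about 1 in 20 times, but only for independent groups of normally distributed values. These groups share samples, and read shares were very uneven between fish, so the 4 of 9 cannot be set against that rate. Fish 3 was high for the class share at acaa2-sg2 (51.1%), and fish 1 among the tlr4 fish (31.5%). With the second guides only averaged, tlr4 fish 1 no longer passed, its gap being 0.789 of the range against a limit of 0.829. Acaa2 fish 2 was high for the class minus in-frame deletions (41.0 points) and low for left minus right (-40.9 points).

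Among 14 named alleles, 10 were high in 1 fish in the same sense. Alleles were named mostly for being high in a fish, so this restates the choice, and the chance rate does not apply to them either. At acaa2-sg1 these were 1:2D (44.4%) and 1:7D (37.0%) in fish 2, 1:5D (1.12%) in fish 3 and -11:10D (17.9%) in fish 4. At acaa2-sg2 they were -16:14D (51.0%) in fish 3, -3:8D (0.431%) in fish 1 and -13:10D (0.0033%, 17 reads) in fish 4. At tlr4ba-sg2 they were -2:2D (33.4%) in fish 1, and -5:5D (3.66%) and -2:4D (0.457%) in fish 2. The only allele of tlr4bb-sg2 tested, 1:2D, was not among them.

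Labels with several events also held frameshift deletions of 2 bp or more and a net frameshift, outside the main measure. They reached 0.368% of classified reads in acaa2-sg2 fish 4, against 0.0083% for the class itself there, and 1889 of the 1911 reads were -15:8D,-3:2D, with a net loss of 10 bp. The highest value at each other guide with over 3 such reads was 0.035% in acaa2-sg1 fish 4, 0.0018% in tlr4ba-sg1 fish 3 (7 reads), 0.103% in tlr4ba-sg2 fish 1 and 0.028% in tlr4bb-sg2 fish 1. No explanation was tested.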

How the results depend on the processing

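Of 154 alternative values of the 8 tests, 128 kept their direction and side of the threshold, 23 turned direction and 3 lost the threshold. The causes were not tested. Of the 8 main tests, only the excess over in-frame deletions had p under 0.05. Unpaired settings with fewer samples than 4 against 4, such as 3 against 4 after leaving 1 out, cannot reach 0.05. The same holds for settings with 4 fish or fewer as pairs. The 128 therefore include settings whose side of the threshold could not change. Keeping the side of the threshold was fixed in advance for those above it. The excess over in-frame deletions lost p under 0.05 with indel reads as the denominator (21.4 points) and within fish 1 and 2 (12.6) or fish 3 and 4 (3.95), where 4 fish cannot reach it; leaving out a fish gave 3.58 to 9.46 points. The acaa2 guides turned within fish 3 and 4 (-15.1) and ran from -5.95 to 25.6 with a sample left out. The second tlr4 guides turned on the log2 odds scale (-0.15) and within fish 3 and 4 (-5.20), and ran from -6.82 to 5.97. The knockouts turned with indel reads as the denominator (-11.2) and on log2 odds (-1.36), and ran from 1.17 to 15.3. Against 1-bp deletions the difference turned within 10 bp of position 0 (0.957), within fish 1 and 2 (1.60) and with only the second guides averaged in the tlr4 fish (1.71), and ran from -6.35 to 0.618. Left minus right turned without substitution-only reads (-0.0092), without alleles under 1% (-0.0085), within 10 bp (-0.170), within fish 1 and 2 (-8.14) and with those second guides only (-0.49), a setting chosen after seeing the data, and ran from -3.51 to 5.90. The tlr4ba guides ran from -13.6 to -1.14 and the tlr4bb guides from -14.9 to -7.05. With indel reads as the denominator the guide differences were 16.5 points for acaa2, -72.6 for tlr4ba, -39.2 for tlr4bb and 35.3 for the second guides.

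With the fish number as a replicate block, differences were 12.8 points for the acaa2 guides (exact sign-flip permutation p = 0.75), -1.14 for tlr4ba, -9.90 for tlr4bb, 1.50 for the second guides and 8.41 for the knockouts, and no call changed. Shared alleles numbered 12, against 35 with 1 read, 5 with 100 reads, 5 at 0.1% and 6 to 10 with a fish number left out, an alternative chosen after seeing the data. Members numbered 134, against 87 with 2 reads, 50 with 10 reads and 98 to 120 with a fish number left out. Few class reads limit acaa2-sg1 fish 1, acaa2-sg2 fish 2 and 4, tlr4ba-sg1 fish 3 and both tlr4bb-sg1 samples.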
